A study of Mus musculus with 28 samples.

Results

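The genes described here are 40 genes of the complement and coagulation systems that the liver makes, 18 of complement and 22 of coagulation and fibrinolysis. They were chosen by symbol from what their proteins do, not from their values, out of 24197 RefSeq genes measured in mouse liver. All 40 were found, and all 40 stood above 5 FPKM (fragments per kilobase of gene, scaled to library size) in every group, so no filter on low values removed any of them.

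Complement is a set of plasma proteins, made mainly by hepatocytes, that marks and lyses microbes. Recognition proteins and their proteases split C4 and C2, the products split the central component C3, and the terminal components C5 to C9 then assemble a pore in the target membrane. Coagulation is a parallel chain of plasma proteases that ends when thrombin turns fibrinogen into fibrin, held in check by serpins and the protein C pathway, and fibrin is later removed by plasmin. Most of these proteins are abundant hepatocyte products, and several are acute phase proteins.

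TCPOBOP is an agonist ligand of the mouse constitutive androstane receptor CAR, which the gene Nr1i3 encodes. Polyadenylated RNA from the nuclei of 28 livers of outbred Crl:CD1(ICR) mice was sequenced, 1 liver per library, in 8 groups. Because the RNA came from nuclei, each value describes nuclear transcripts of whole liver and not plasma protein.

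The 8 groups form 4 comparisons of TCPOBOP with vehicle, and all mice received intraperitoneal corn oil with DMSO. At 2 weeks, after a low volume of oil (4 µl per g body weight, 10% DMSO), the groups were 4 TCPOBOP and 3 vehicle males and 4 TCPOBOP and 3 vehicle females aged 9 to 10 weeks. At 8 weeks, 3 TCPOBOP and 3 vehicle males received a high volume (20 µl per g, 2% DMSO), and 4 TCPOBOP males received the low volume beside 4 vehicle males given that volume over 4 to 8 weeks. Mice of the 8-week groups were 15 to 16 weeks old, except 2 of the low-volume vehicle males, which were at most 12 weeks old. The first TCPOBOP dose was 3 mg per kg, and the later doses at 8 weeks were 1 mg per kg in high and 1.5 mg per kg in low oil. The low-oil groups at 8 weeks carry another sample set code than the high-oil groups, so oil volume, later dose and sample set cannot be told apart between them. In the female TCPOBOP group 1 of 4 libraries also carries another set code. The groups are called 2-week males, 2-week females, high-oil males and low-oil males below.

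The deposited table holds 1 FPKM value per group, a fold change and an edgeR p-value adjusted for multiple testing, but no value of a single library. No SD or interval could therefore be given, the depth is unknown, and whether libraries of opposite groups overlap cannot be seen. A gene is said to have risen or fallen where the adjusted p in the authors' deposited table was under 0.05. In whole liver, fewer cells of a type and less RNA per cell cannot be told apart. The treatment was visible in all 4 comparisons: log2 fold changes of the CAR target Cyp2b10 in the authors' deposited table were 7.05, 6.09, 7.85 and 6.60, and Nr1i3 itself fell by 2.32, 1.57, 2.15 and 2.57 in the same order.

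TCPOBOP changed few of these genes. In 2-week males 1 of 40 members was called in the authors' deposited table, or 2.5%, where 5.84% of all genes above 0 FPKM and 8.97% of genes with at least 5 FPKM in the higher group were called. In 2-week females 5 of 40 were called, or 12.5%, against 8.97% and 14.1%. In high-oil males 5 of 40 were called, or 12.5%, against 8.05% and 15.2%. In low-oil males 6 of 40 were called, or 15%, against 8.73% and 13.3%. The members are all well expressed, so the share of genes at or above 5 FPKM is the nearer background, and in every comparison the members' share lay below it or near it.

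The direction of the calls is set here beside the share of genes above 0 FPKM and then of genes with at least 5 FPKM called the same way. In 2-week males no member rose, against 3.42% and 5.47% of genes, and 1 fell, against 2.42% and 3.51%. At an unadjusted edgeR p under 0.05, recovered from the adjusted values so that counts are lower bounds, at least 4 members were higher there and at least 3 lower. In 2-week females 1 member rose, against 4.67% and 8.75%, and 4 fell, against 4.3% and 5.37%. In high-oil males 5 rose, against 5.51% and 11.3%, and none fell, against 2.54% and 3.91%, while at an unadjusted edgeR p under 0.05 at least 3 members were lower. In low-oil males 5 rose, against 4.98% and 6.34%, and 1 fell, against 3.76% and 7.01%. Differences between the 4 responses were not tested.

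Across the comparisons 11 members were called at least once and 29 never. F11 and Serpind1 were called in 3 comparisons, Mbl2 and F10 in 2, and C3, Hc, C8a, C8b, C9, Pros1 and Serpinc1 in 1 each. None of the 40 was called in all 4. The 29 uncalled members had log2 fold changes from -0.68 to 0.76 in the authors' deposited table, with a smallest adjusted p of 0.0528.

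**Figure D1:**
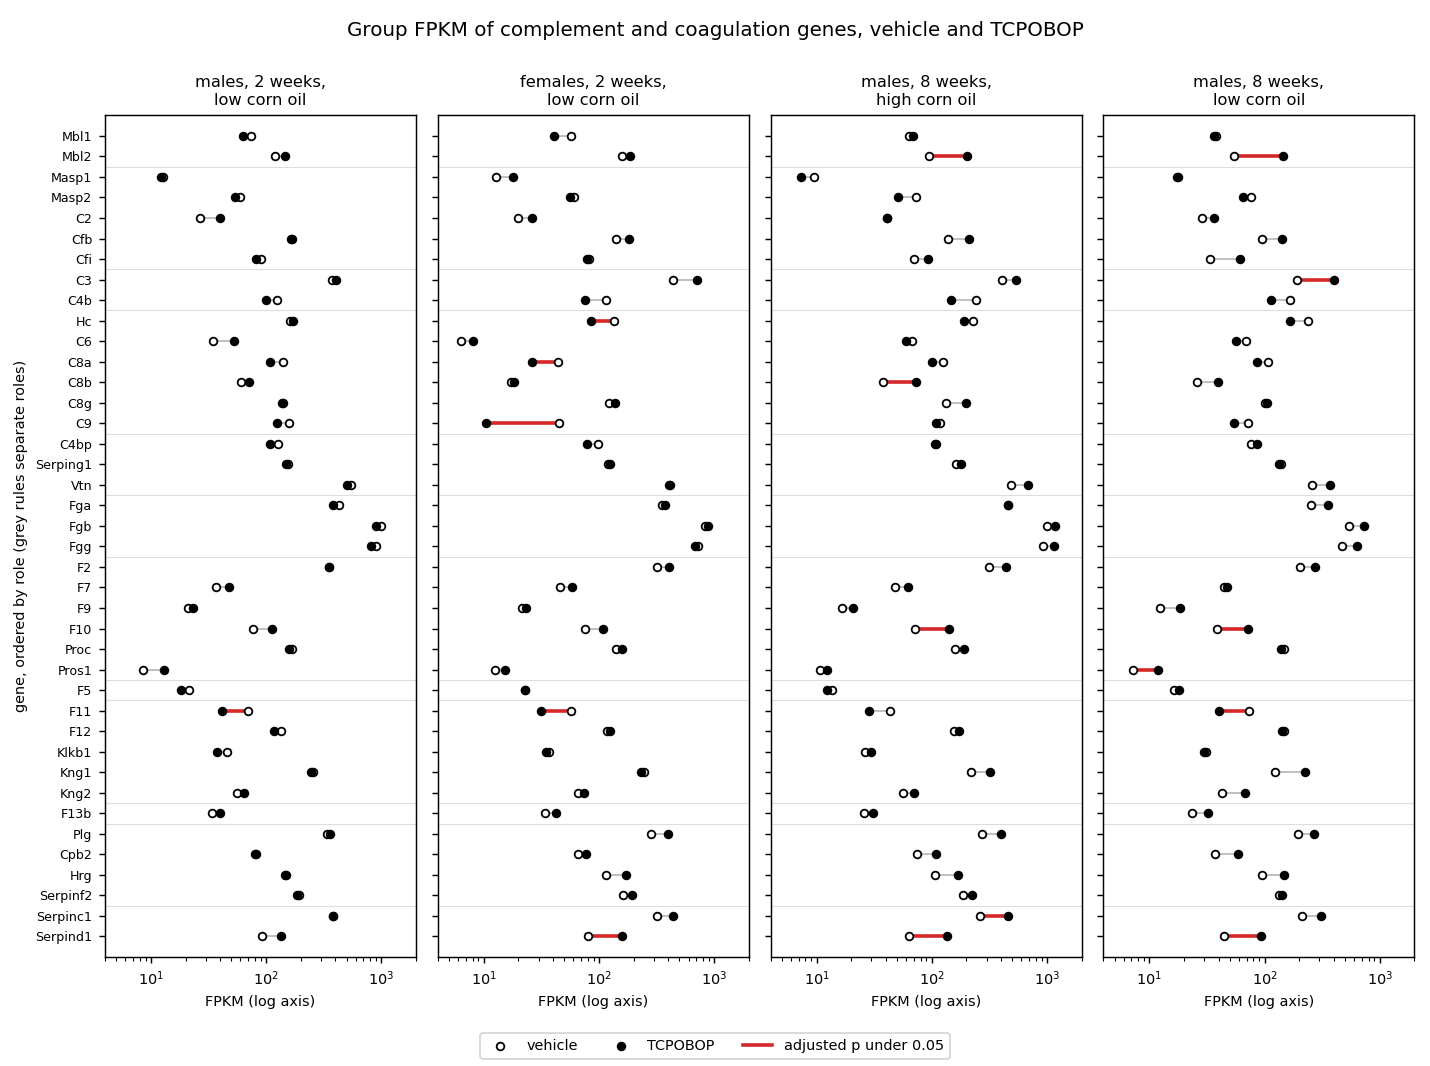
Group FPKM of the 40 genes (log axis) in vehicle (open points) and TCPOBOP (filled points), in a panel for each comparison, with genes ordered by role and red lines where the authors' adjusted p was under 0.05. Each point is the authors' single value for a group, so no error can be drawn. Levels run from 6.33 FPKM for C6 in vehicle females to 1187 FPKM for Fgb in TCPOBOP high-oil males, and red lines mark 11 of the 40 genes.

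The 4 genes called more than once are shown first with the 250 bases before their RefSeq start (build GRCm38.p6, not the mm9 build of the deposited table), since those bases are what the gene's own start region offers for comparison between genes that rose and the gene that fell. Each runs 5′ to 3′ in the direction of the gene, with motif matches in capitals.
Serpind1, chr16:17331121-17331370 (plus strand): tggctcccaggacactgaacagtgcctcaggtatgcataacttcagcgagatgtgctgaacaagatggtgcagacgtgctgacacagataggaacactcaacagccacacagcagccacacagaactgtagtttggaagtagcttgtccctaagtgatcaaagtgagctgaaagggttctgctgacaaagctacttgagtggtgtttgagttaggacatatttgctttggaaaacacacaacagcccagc
Mbl2, chr19:30232678-30232927 (plus strand): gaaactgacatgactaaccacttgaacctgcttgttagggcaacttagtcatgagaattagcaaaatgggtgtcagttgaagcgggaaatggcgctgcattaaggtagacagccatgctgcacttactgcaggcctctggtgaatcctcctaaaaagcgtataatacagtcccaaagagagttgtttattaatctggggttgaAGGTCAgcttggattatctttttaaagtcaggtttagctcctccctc
F10, chr8:13037058-13037307 (plus strand): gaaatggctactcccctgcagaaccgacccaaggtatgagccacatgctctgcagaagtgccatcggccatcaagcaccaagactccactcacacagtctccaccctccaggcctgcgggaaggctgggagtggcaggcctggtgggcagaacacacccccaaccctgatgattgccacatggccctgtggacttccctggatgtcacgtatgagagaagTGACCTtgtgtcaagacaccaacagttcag
F11, chr8:45262032-45262281 (minus strand): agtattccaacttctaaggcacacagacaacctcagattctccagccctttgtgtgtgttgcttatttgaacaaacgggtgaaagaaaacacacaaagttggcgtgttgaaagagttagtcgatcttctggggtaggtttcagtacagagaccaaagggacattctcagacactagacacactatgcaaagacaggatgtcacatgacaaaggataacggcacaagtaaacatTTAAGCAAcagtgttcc

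Among these windows, Mbl2 holds AGGTCA, the core that many nuclear receptors bind, on the gene's strand 47 to 42 bases before the start. F10 holds the same letters on the opposite strand, 30 to 25 bases before the start, read here as TGACCT. F11 holds TTGCNNAA, a C/EBP-like motif, on the opposite strand 17 to 10 bases before the start, and Serpind1 holds none of the motifs given here. Matches were counted on both strands, and the motif letters do not contain each other. The table held a window for 31 of the 40 genes, with none for C2, C4b, Cfb, Cfi, Masp1, Kng1, Plg, Proc and Serping1. AGGTCA was in 11 of these 31 genes and in 14.0% of 32851 windows of all genes, and TTGCNNAA in 9 of 31 and 9.56%. TTCNNNGAA, a STAT-like motif, was in 6 of 31 and 7.02%, and TATAAA, the TATA box, in 3 of 31 and 12.4%. A match shows the letters and not that a factor binds, and these shares carry no test.

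F11 encodes factor XI, the protease that thrombin or factor XIIa activates and that in turn activates factor IX. It stood at 69.5 FPKM in vehicle and 41.2 in TCPOBOP 2-week males, at 57.5 and 31.1 in 2-week females, at 43.6 and 28.6 in high-oil males and at 73.5 and 40.1 in low-oil males. TCPOBOP was lower in every pair, and no TCPOBOP value reached the lowest vehicle value. By the authors' deposited table F11 fell by 0.83 log2 units in 2-week males (adjusted p 0.00493), by 0.89 in 2-week females (adjusted p 0.00336) and by 0.99 in low-oil males (adjusted p 5.94e-05). In high-oil males its log2 fold change was -0.57 with an adjusted p of 0.229, and there the vehicle value was the lowest of the 4. Klkb1, which lies next to F11 in the genome and encodes the related protease plasma prekallikrein, was called in none of the 4, where the authors' deposited table gives log2 fold changes of -0.34, -0.10, 0.21 and -0.17.

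Serpind1 encodes heparin cofactor II, a serpin that inhibits thrombin in the presence of dermatan sulfate or heparin. Its level was 91.5 FPKM in vehicle and 134 in TCPOBOP 2-week males, 80.8 and 159 in 2-week females, 63.2 and 135 in high-oil males, and 44.6 and 93.5 in low-oil males. TCPOBOP was the higher value in each pair, and the TCPOBOP value of low-oil males was close to the vehicle value of 2-week males. In the authors' deposited table it rose in 2-week females (log2 fold change 0.96, adjusted p 0.0300), in high-oil males (1.14, adjusted p 0.00222) and in low-oil males (0.97, adjusted p 0.000865). In 2-week males the log2 fold change was 0.48 with an adjusted p of 0.253.

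Mbl2 encodes a mannose-binding lectin, which recognises sugars on microbes and starts the lectin pathway of complement. It stood at 95.0 FPKM in vehicle and 201 in TCPOBOP high-oil males, and at 54.3 and 146 in low-oil males. By the authors' deposited table these rises were 1.13 log2 units (adjusted p 0.0016) and 1.33 (adjusted p 0.000117), the latter the largest positive change of any member in the 4 comparisons. At 2 weeks its levels were 121 and 145 FPKM in males and 160.3 and 184.6 in females, and neither difference was called (adjusted p 0.988 and 1). Mbl1, the second mouse mannose-binding lectin, had levels of 73.6 and 63.0 FPKM, 56.7 and 41.0, 63.6 and 68.8, and 37.7 and 36.7 in the 4 pairs and was not called in any.

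F10 encodes factor X, the vitamin K dependent zymogen whose active form makes thrombin from prothrombin. Its levels were 77.4 FPKM in vehicle and 113 in TCPOBOP 2-week males, 75.4 and 108 in 2-week females, 70.9 and 142 in high-oil males, and 38.4 and 72.4 in low-oil males. The TCPOBOP value was higher in each pair, and F10 rose in high-oil males (log2 fold change 1.05, adjusted p 0.00131) and low-oil males (0.81, adjusted p 0.00331) in the authors' deposited table. The 2-week log2 fold changes were 0.48 (adjusted p 0.216) and 0.50 (adjusted p 0.406). F7, the adjacent gene, encodes factor VII and was called in none, where the authors' deposited table gives log2 fold changes of 0.31, 0.32, 0.42 and -0.04.

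**Figure D2:**
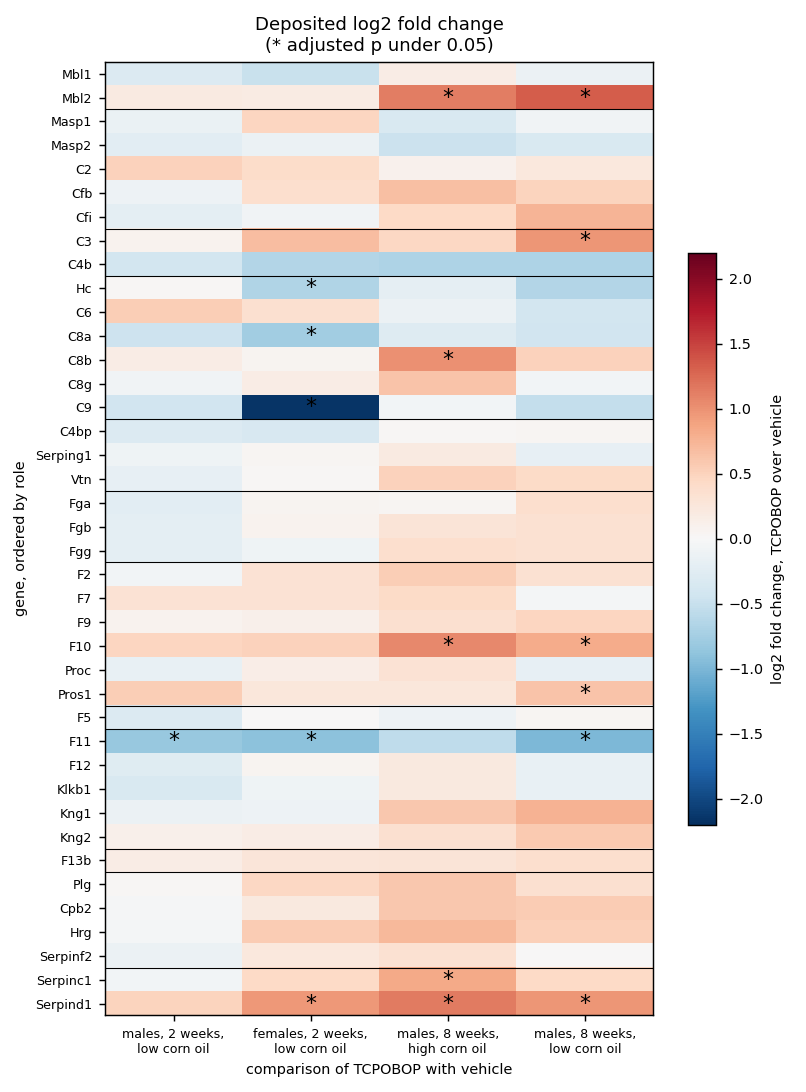
Log2 fold change of TCPOBOP over vehicle in the authors' deposited table as a colour map, with the 40 genes as rows ordered by role, the 4 comparisons as columns and asterisks where the adjusted p was under 0.05. Red is higher and blue lower with TCPOBOP, and the deepest colours are C9 in females at -2.17 and Mbl2 in low-oil males at 1.33.

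The terminal pathway held the largest change of any member. C9 encodes the component that polymerises into the wall of the complement pore. In 2-week females it stood at 45.5 FPKM in vehicle and 10.4 in TCPOBOP, and it fell by 2.17 log2 units, or 4.49-fold, by the authors' deposited table (adjusted p 1.17e-10). Its levels in the male pairs were 158 and 124 FPKM, 119 and 109, and 72.1 and 53.9, for which the authors' deposited table gives log2 fold changes of -0.42, -0.06 and -0.53 and adjusted p of 0.814, 1 and 0.362. The female TCPOBOP value was the lowest of the 8 groups, and the female vehicle value was below every male value. Whether the library of another set code contributed to it was not tested.

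C8a and Hc also fell in females. C8a encodes the alpha chain of C8, which inserts in the target membrane, and fell from 44.4 to 26.2 FPKM (log2 fold change -0.77, adjusted p 0.00469 in the authors' deposited table). Hc encodes C5, whose larger fragment starts the terminal complex, and fell from 135 to 86.3 FPKM (-0.66, adjusted p 0.0392). In the 3 male pairs C8a had 141 and 107, 127 and 100, and 106 and 85.6 FPKM, and Hc had 161 and 173, 227 and 192, and 239 and 167 FPKM, none of them called.

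C8b encodes the beta chain of C8 and lies next to C8a in the genome. It rose in high-oil males from 38.0 to 72.9 FPKM (log2 fold change 1.01, adjusted p 0.00611 in the authors' deposited table). The other pairs were 60.9 and 71.1 FPKM, 17.4 and 18.3, and 25.8 and 39.2, with none called. The adjacent genes C8a and C8b thus had calls in opposite directions and in different comparisons. C8g, the gamma chain, which is encoded elsewhere in the genome, stood between 101 and 198 FPKM in all groups and was not called, and C6, which binds C5b, was not called either, at 34.5 and 52.2, 6.33 and 8.12, 67.5 and 59.4, and 69.6 and 56.8 FPKM in the 4 pairs.

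**Figure D3:**
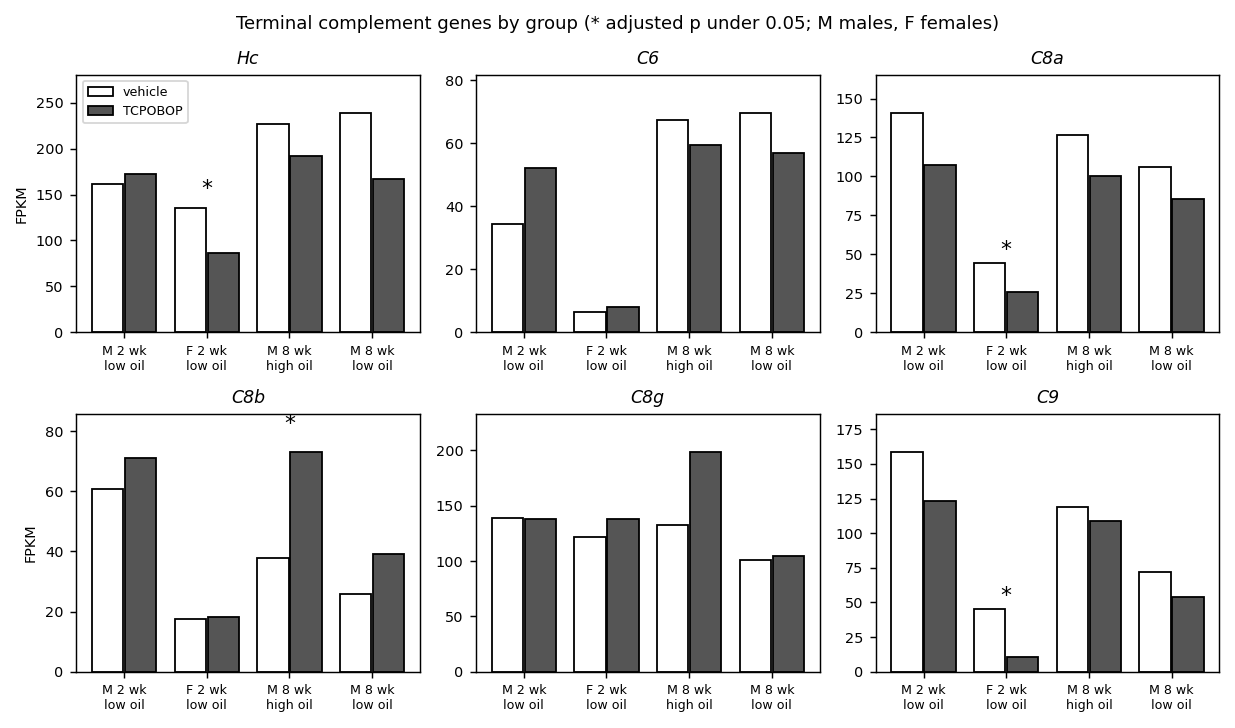
FPKM of the 6 terminal pathway genes as bars from 0, a panel for each gene and a bar for each of the 8 groups, vehicle white and TCPOBOP grey, with asterisks where the adjusted p was under 0.05. C6, C8a, C8b and C9 lie lower in females than in males in vehicle, and C9 goes from 45.5 to 10.4 FPKM in females, whereas Hc and C8g have vehicle values of 135 and 122 FPKM in females beside 161 and 139 in 2-week males.

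Vehicle levels of several terminal pathway genes also differed between the sexes. Of the genes that fell with TCPOBOP in females, C9 and C8a were among these, while Hc was 1.19-fold lower in vehicle females. Between vehicle males and females at 2 weeks, a comparison for which the table holds no test, 4 members differed by at least 2-fold and all 4 were lower in females. C6 stood at 34.5 FPKM in males and 6.33 in females (5.46-fold), C8b at 60.9 and 17.4 (3.51-fold), C9 at 158 and 45.5 (3.48-fold) and C8a at 141 and 44.4 (3.17-fold). The next member was C2, 1.36-fold lower in females. The members with the highest ratio of female to male level were Pros1 at 1.48, Mbl2 at 1.33, F7 at 1.27, Kng2 at 1.18 and C3 at 1.18. In all, 31 of 40 members (77.5%) were lower in females, beside 35.3% of 5273 genes at or above 5 FPKM. The median log2 ratio was -0.25 for members and 0.08 for these genes. Among TCPOBOP mice the levels of the same 4 genes were 11.9-fold lower in females for C9, 6.44-fold for C6, 4.09-fold for C8a and 3.88-fold for C8b.

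Of the early complement genes other than Mbl2, C3 was the member called. C3 is the component on which all complement pathways converge, and it stood at 371 and 408 FPKM in 2-week males, 437 and 707 in females, 405 and 536 in high-oil males, and 193 and 402 in low-oil males. It rose in low-oil males (log2 fold change 0.96, adjusted p 0.00108 in the authors' deposited table), where the vehicle value was the lowest of the 8. The female TCPOBOP value was the highest, but the female change was not called (0.68, adjusted p 0.184). C4b, the C4 gene, had a lower TCPOBOP value in each pair, with log2 fold changes of -0.40, -0.65, -0.68 and -0.67 and adjusted p of 0.276, 0.118, 0.0573 and 0.0735 in the authors' deposited table, so none was called. C4b is nearly identical to C4a, and the sources used here do not say how reads shared by the pair were counted.

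The complement proteases Masp1 and Masp2 of the lectin pathway, C2 of the C3 convertase, factor B (Cfb) of the alternative pathway and factor I (Cfi), which cleaves C3b, were not called in any comparison. Neither were the inhibitors C4bp, which binds C4b, Serping1, the C1 inhibitor, and Vtn, vitronectin, which blocks pore insertion. Their log2 fold changes in the authors' deposited table lay between -0.47 for Masp2 in high-oil males and 0.75 for Cfi in low-oil males. With a median of 407 FPKM over the 8 groups, C3 was the most abundant complement component other than Vtn.

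Fibrinogen was the most abundant product of the set. Fgb and Fgg, encoding the beta and gamma chains, had with Vtn the highest levels among the uncalled members. Fgb stood at 1001 and 902 FPKM in 2-week males, 829 and 890 in females, 1009 and 1187 in high-oil males, and 545 and 734 in low-oil males. Fga, the alpha chain, stood at 430 and 383, 355 and 376, 464 and 463, and 254 and 354 FPKM in the same order. The 3 chains lie side by side in the genome, and the ratio of Fgb to Fga stayed between 2.07 and 2.56 in all 8 groups. None of the 3 was called, and vehicle low-oil males had the lowest level of each.

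Of the vitamin K dependent genes other than F10, Pros1 was called. It encodes protein S, the cofactor of activated protein C, and rose in low-oil males from 7.18 to 12.0 FPKM (log2 fold change 0.63, adjusted p 0.0234 in the authors' deposited table). Its other pairs were 8.54 and 13.1 FPKM, 12.6 and 15.2, and 10.7 and 12.3, with adjusted p of 0.0956, 0.795 and 0.89 in the authors' deposited table. Prothrombin (F2), factors VII and IX (F7, F9) and protein C (Proc) were not called. Of the serpins, Serpinc1, encoding antithrombin, rose in high-oil males from 265 to 457 FPKM (0.84, adjusted p 0.0175). It stood at 380 and 381 FPKM in 2-week males, 319 and 436 in females, and 213 and 311 in low-oil males, without a call.

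The remaining coagulation genes were not called. They are F5, the cofactor of factor Xa, F12, Klkb1, Kng1 and Kng2 of the contact system, F13b, which carries the fibrin-linking enzyme, and the fibrinolysis genes Plg (plasminogen), Cpb2 (a carboxypeptidase that slows fibrin removal), Hrg (histidine-rich glycoprotein) and Serpinf2 (antiplasmin). F5, F9 and Masp1 had the lowest levels of the uncalled members, with F5 between 12.3 and 22.9 FPKM. Kng1 in low-oil males, at 122 and 222 FPKM, came nearest to a call (0.76, adjusted p 0.0528 in the authors' deposited table). Kng1 and Kng2 are closely related copies, so their separate values are uncertain.

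At 8 weeks most members had positive values, called or not. The median of the 40 log2 fold change in the authors' deposited table was -0.11 in 2-week males, 0.13 in females, 0.33 in high-oil males and 0.33 in low-oil males, where genes at or above 5 FPKM had medians of 0.03, 0.09, 0.01 and -0.04. Positive values were found for 14, 28, 31 and 25 of the 40 in this order, or 35%, 70%, 77.5% and 62.5%. Of genes at or above 5 FPKM, 52.9%, 57.7%, 50.9% and 46.4% had positive values. The complement members had medians of -0.13, 0.04, 0.13 and -0.07, and the coagulation members -0.06, 0.19, 0.35 and 0.36. High-oil and low-oil males gave the same sign for 32 of 40 members, or 80%, as for 81.1% of 5057 genes at or above 5 FPKM. The 2-week males and females gave the same sign for 24 of 40, or 60%, beside 80.0% of 5108 genes. That count depends on scaling, since the deposited fold in 2-week males differs from the FPKM ratio by -0.07 log2 units. F2, Serpinc1, Cpb2 and Hrg had negative deposited values there although their FPKM was slightly higher with TCPOBOP, and their values in females were positive. These shares are descriptions, since co-expressed genes are not independent.

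The low-oil comparison starts from a low vehicle level. In vehicle low-oil males, 31 of 40 members (77.5%) were lower than in vehicle 2-week males, beside 49.0% of 5342 genes at or above 5 FPKM. The median log2 FPKM ratio was -0.67 for members and 0.01 for these genes. The low level was not particular to the members. The 9 hepatocyte markers described further below were each lower as well, with sums of 6641 FPKM in low-oil and 16982 in 2-week vehicle males. These differences are not tested in the table, and the groups differ in age, duration and sample set. The 9 members at least 2-fold lower were Cfi, C8b, Mbl2, C9, Cpb2, Vtn, Kng1, Serpind1 and F10, and C6 was 2.01-fold higher. Of the 5 genes that rose in low-oil males, TCPOBOP values beside vehicle values of 2-week males were 146 and 121 FPKM for Mbl2, 93.5 and 91.5 for Serpind1, 402 and 371 for C3, 72.4 and 77.4 for F10, and 12.0 and 8.54 for Pros1. In vehicle high-oil males the median log2 ratio to vehicle 2-week males was -0.15, so the low level was less marked there.

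The table also compares TCPOBOP males of high with low oil at 8 weeks, which reuses the TCPOBOP libraries of both 8-week comparisons. Here 16 of 40 members were called in the authors' deposited table, or 40%, where 9.85% of genes above 0 FPKM and 17.6% of genes at or above 5 FPKM were called. In high oil 15 members were higher, beside 4.78% of genes above 0 FPKM and 13.2% of genes at or above 5 FPKM, and 1 was lower, beside 5.07% and 4.42%. Complement genes called higher were C9 (log2 fold change 1.16, adjusted p 0.00778), C8g (1.07, adjusted p 3.10e-06), Mbl1 (1.04, adjusted p 0.00111), C8b (1.03, adjusted p 0.0212) and Vtn (1.01, adjusted p 0.000731) in the authors' deposited table. Coagulation genes called higher were F10, at 142 FPKM in high and 72.4 in low oil (1.11, adjusted p 8.29e-05), Fgg, at 1160 and 633 (1.02, adjusted p 0.000182), Cpb2, Fgb, F2, Serpinf2, Plg, Serpinc1, Proc and F7, the last with a log2 fold change of 0.55 and an adjusted p of 0.0480. Masp1 was the member lower in high oil, at 7.35 FPKM beside 17.7 in low oil (-1.12, adjusted p 1.5e-06). The median of the 40 was 0.56 and 36 (90%) were positive, where genes at or above 5 FPKM had a median of 0.15 and 64.1% were positive.

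Vehicle mice of the same regimens differed in the same sense. Without treatment, 33 of 40 members (82.5%) were higher in high than in low oil, beside 58.6% of 5347 genes. Their median log2 FPKM ratio was 0.49, beside 0.08 for those genes. Among TCPOBOP males 35 of 40 (87.5%) were higher, beside 49.8% of 5453 genes, with medians of 0.42 and -0.00. C3, Cfi and Cpb2 were at least 2-fold higher in vehicle high-oil males. F11 stood at 43.6 FPKM in high-oil and 73.5 in low-oil vehicle males, and Masp1 at 9.59 and 17.4. The deposited fold carries a scaling beyond the FPKM ratio, which moves all genes by 0.15 log2 units in this comparison and by -0.11 in the low-oil comparison with vehicle. On the FPKM ratio 35 of the 40 remained above 0 among TCPOBOP males. Regimen and sample set cannot be told apart in these differences, nor can the later dose among TCPOBOP males. The vehicle groups received no TCPOBOP but also differed in duration, 8 weeks in high and 4 to 8 weeks in low oil. Of the 4 low-oil vehicle males 2 were at most 12 weeks old, where the high-oil vehicle males were 15 to 16 weeks old.

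Cell type markers moved in the comparison of both TCPOBOP groups as well. Of 9 hepatocyte markers 5 were higher in high oil (Apoa1, Ahsg, Apoh, Serpina1a and Cyp2e1), with summed levels of 15228 FPKM in high and 9744 in low oil. In all 7 had positive values, with Alb at a log2 fold change of 0.38 and not called. Apob and Cps1 had negative values of -0.20 and -0.11, not called either. Of genes above 0 FPKM and genes at or above 5 FPKM, 4.78% and 13.2% were called higher, and 5.07% and 4.42% lower. Of 11 endothelial markers 7 were lower in high oil (Pecam1, Cdh5, Kdr, Eng, Tek, Oit3 and F8) and all 11 had negative values, with summed levels of 123 and 211 FPKM and a median log2 fold change of -0.88 by the authors' deposited table. Col1a1 and Col1a2 of the 10 stellate markers were lower, S100a9 of the 8 lymphocyte and neutrophil markers was higher. The 5 hepatocyte markers called higher and the 7 endothelial markers called lower stood beside the 15 higher members, and their part in that result was not tested.

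**Figure D4:**
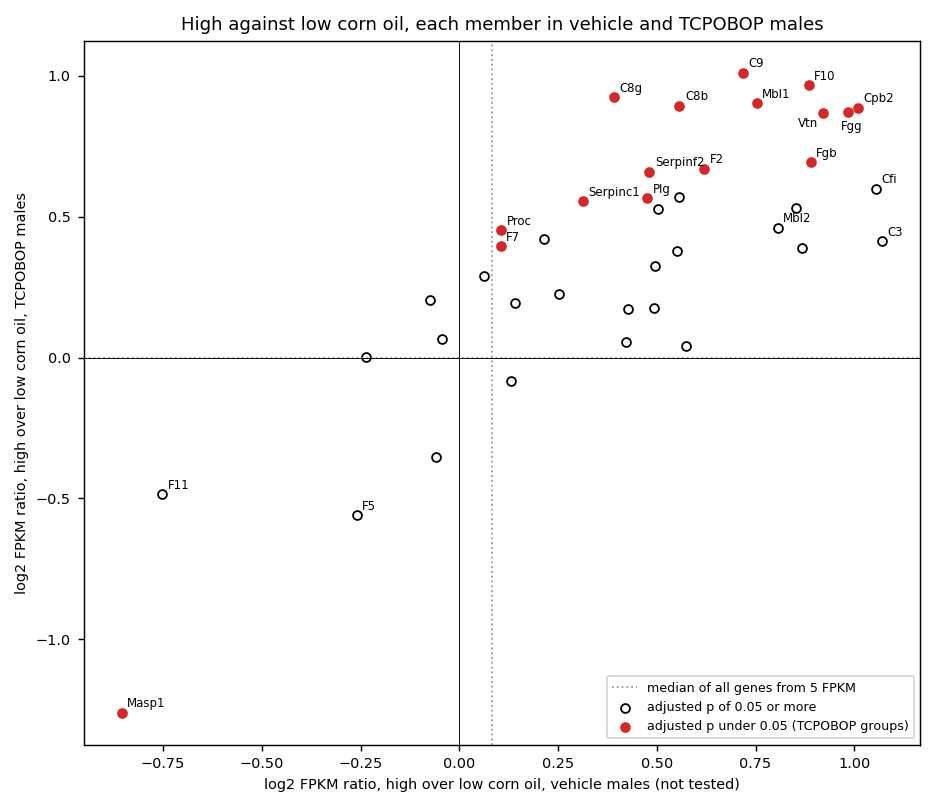
Log2 ratio of FPKM in high-oil over low-oil males at 8 weeks for each of the 40 genes, with vehicle on the horizontal and TCPOBOP on the vertical axis, red where the TCPOBOP groups were called different and dotted lines at the median of all genes at or above 5 FPKM. Most points lie above 0 on both axes, 33 in vehicle and 35 in TCPOBOP, while Masp1, F11, F5 and Masp2 lie below 0 on both.

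Further complement genes were counted in the same way. Of 32 further complement genes 30 were in the table, and by the authors' calls 1 rose in 2-week males, 2 rose and 1 fell in females, 2 rose and 1 fell in high-oil males and 2 rose and 2 fell in low-oil males. The shares of genes above 0 FPKM called in either direction were 5.84%, 8.97%, 8.05% and 8.73% in this order, and nothing particular to the list is read from its counts. Clu, encoding clusterin, which binds terminal complexes, stood at 142 and 523 FPKM in females, 181 and 484 in high-oil males and 125 and 292 in low-oil males. These rises had, by the authors' deposited table, log2 fold changes of 1.87, 1.47 and 1.13 and adjusted p of 9.87e-06, 5.96e-07 and 1.81e-05. C4a, whose product is sex-limited protein and which is nearly identical to C4b, went from 87.5 to 16.9 FPKM in high-oil males (-2.31, adjusted p 1.08e-12) and from 96.1 to 18.3 in low-oil males (-2.51, adjusted p 7.06e-09) in the authors' deposited table. In females C4a stood at 1.54 and 1.30 FPKM. The complement receptors C3ar1 (in females) and C5ar1 (in high-oil males) and the integrin chain Itgax (in low-oil males) rose, and the ficolin gene Fcna fell in low-oil males. C1qc, a C1q chain made by macrophages, rose in 2-week males.

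All 28 further coagulation and fibrinolysis genes were in the table. By the authors' calls 5 rose and 4 fell in 2-week males, 3 rose and 3 fell in females, 3 rose and 2 fell in high-oil males and 3 rose and 3 fell in low-oil males. Of genes above 0 FPKM, 3.42%, 4.67%, 5.51% and 4.98% rose in this order, and 2.42%, 4.3%, 2.54% and 3.76% fell. The list was chosen with earlier results of these data known, so its counts carry no test. Anxa2 and S100a10, whose products form a cell-surface receptor for plasminogen and its activator, rose in all 4. Mug2, encoding a murinoglobulin protease inhibitor, fell in all 4, and the related Mug1 fell in 3. Serpina5, the protein C inhibitor, fell in females and in both 8-week comparisons, at 0.407 and 0.0104 FPKM in females (adjusted p 1.85e-12 in the authors' deposited table). Other calls were rises of the urokinase gene Plau in 2-week males (0.412 and 1.08 FPKM) and of the thrombin receptor gene F2r in 2-week and high-oil males. F2rl1 rose in low-oil males, at 0.0156 and 0.143 FPKM. Serpine2 (0.766 and 0.203 FPKM) and Gas6 fell in 2-week males. Of 9 genes of the vitamin K cycle and of factor secretion none fell, beside 2.42% to 4.3% of genes above 0 FPKM. Lman1 and Furin rose in females, and Vkorc1l1 and Nqo1 in low-oil males. Vkorc1, the vitamin K epoxide reductase, rose in high-oil males (50.9 and 100.2 FPKM, adjusted p 0.000594 in the authors' deposited table). Of 22 liver regulators of these genes none rose, beside 3.42% to 5.51% of genes above 0 FPKM, and nothing particular is read from that count. Nr1i3 fell in 4 comparisons, the IL-6 receptor gene Il6ra in 3 and Il1r1 in both 8-week comparisons.

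Markers of the cell types in liver were measured beside these genes. Of 10 hepatocyte markers 9 were in the table, with a summed level of 6641 to 18269 FPKM in the vehicle groups, lowest in low-oil males. Alb fell in 2-week males, Apoa1 rose in both 8-week comparisons and Apoh in high-oil males. Summed Kupffer cell and macrophage markers (11 of 12 in the table) stood at 151 to 246 FPKM in vehicle and 226 to 324 in TCPOBOP, endothelial markers (11) at 133 to 213 and 123 to 238, and stellate cell and fibroblast markers (10) at 73.6 to 124 and 91.5 to 146. Of the stellate list Col1a1, Col1a2 and Col3a1 rose in all 4 comparisons and Acta2 in low-oil males, whereas for Lrat, a marker of quiescent stellate cells, the authors' deposited table gives log2 fold changes of -0.44, -0.60, -0.51 and -0.86, and it fell in low-oil males (adjusted p 0.00773). The medians of the 10 were 0.04, 0.25, 0.36 and 0.07. Cholangiocyte markers (6) summed to 8.99 to 14.7 FPKM and 13.7 to 24.7. Most of each sum was Spp1, at 8.16 and 12.4, 12.4 and 13.7, 6.99 and 22.1, and 6.78 and 21.8 FPKM in the 4 pairs. Spp1 rose in low-oil males. On the log2 scale the 6 had medians of -1.05, -0.44, 0.06 and 0.67 in the same order. At 2 weeks Epcam, Krt19, Krt7 and Sox9 were lower with TCPOBOP in both sexes, and Cftr in males, none of them called. Lymphocyte and neutrophil markers (8) summed to 7.24 to 14.6 and 20.8 to 54.4 FPKM. Most of the rise in each sum was S100a8, which rose in all 4 comparisons. It stood at 0.236 and 18.3, 0.883 and 41.0, 1.70 and 23.4, and 0.976 and 6.32 FPKM in the 4 pairs. No other marker of this list was called against vehicle. S100a9 had 0.579 and 1.13, 0.810 and 1.35, 2.88 and 2.58, and 1.45 and 1.24 FPKM. The 8 had log2 medians of 0.38, 0.47, 0.02 and 0.47. Platelet markers (6) summed to 2.36 to 3.20 and 3.33 to 6.02 FPKM. The part of these cell type markers in the members' results was not tested.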

How the data were processed

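Nuclear polyadenylated RNA of 28 mouse livers was sequenced, per the labels. Reads were aligned to mm9 with TopHat2 2.0.13 and counted with featureCounts 1.4.6-p5, and edgeR is named without a version, per the submitters' processing notes. The authors deposited 1 table of 24197 genes and 5 comparisons. Its FPKM values are 1 per group, made by the authors and, per the file headers, covering the gene body. The sources used here do not say how replicates were combined into them. The deposited fold changes are a signed score of the authors, in which a negative value is the inverse ratio, and it was put on the log2 scale here. The deposited p-values pile up at 1 as Benjamini-Hochberg adjusted values do, with 39.9% of genes at or above 5 FPKM at exactly 1 in 2-week males, and are called adjusted p.

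The planned edgeR fits need library values and could not be made, so all calls are the authors' own, at an adjusted p under 0.05. Separate mice are the replicates, per the labels. Named members were those called at least once, the 3 uncalled with the highest and the 3 with the lowest FPKM, and the 5 at each end of the female to male ratio. Of each other pathway list up to 6 called genes with the smallest p were named, and Cyp2b10 and Nr1i3 always. Other members and list genes named, the marker genes included, were picked with their values in view. A few list genes, though counted, and 1 of the 5 motifs searched are not reported here. The members and lists were chosen with earlier results of these data known. Promoter windows came from RefSeq (GRCm38.p6), as did which genes are neighbours. Genes were matched by symbol, and C1s, C1sa, Tf and Adgre1 had no matching row. Python 3.11.15, pandas 2.3.3 and matplotlib 3.10.9 were used, and the steps were tested on simulated data. Alternatives were a stricter p, a least 2-fold change, a least FPKM of 1, pseudocounts of 0.1 and 1 on FPKM, and centring on the median of all genes.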

Additional observations from a re-analysis of the deposited data

How the results depend on the processing

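Of 43 counts recomputed under alternatives, 36 stayed within 1.5 times and 7 moved. The sign of the FPKM ratio and centring kept the authors' p, so they could move a count only by reversing the sign of a called member. A stricter p or a 2-fold limit could not move a count that was already 0. The 36 therefore include many counts that could hardly move, and the 7 all came from the stricter p or the 2-fold limit. The least FPKM of 1 could change no count, since all members stood above 5 FPKM in every group. A change of direction can be seen only for medians, and none of the 16 recomputed medians changed sign. Requiring at least a 2-fold change gave 0 in place of 1 lower member in 2-week males, 0 in place of 1 higher and 1 (C9) in place of 4 lower in females, 1 (Mbl2) in place of 5 higher and 0 in place of 1 lower in low-oil males, and 9 in place of 16 called between the TCPOBOP groups of high and low oil. At an adjusted p under 0.01 the count of higher members in females was 0 in place of 1. The members' median log2 fold change was -0.0381 and -0.0379 with pseudocounts of 0.1 and 1 on FPKM, and -0.0996 centred, in 2-week males; 0.1477, 0.1447 and 0.1199 in females; 0.2749, 0.2736 and 0.3724 in high-oil males; and 0.4325, 0.4318 and 0.3437 in low-oil males. Added after seeing the data, the FPKM ratio of the TCPOBOP groups of both oils had a median of 0.42 in place of 0.56. No paired analysis was possible because the columns hold pooled groups and carry no replicate numbers. For the same reason the planned fits with DESeq2, without each replicate in turn and with the replicate block were not run, so whether 1 liver carries a call could not be seen. Depth is unknown, and calls for low genes such as Serpina5 rest on FPKM below 1.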

Other observations

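Ratios between neighbouring copies were read as further values with no test. The ratio of C4b to C4a in FPKM was 4.03 in vehicle and 4.51 in TCPOBOP 2-week males, 75.6 and 57.8 in females, 2.79 and 8.73 in high-oil males, and 1.73 and 6.21 in low-oil males, so at 8 weeks TCPOBOP males had a higher ratio than their vehicles in both regimens. The ratio of Kng1 to Kng2 lay between 2.89 and 4.57 in all 8 groups, lowest in vehicle low-oil males. Reads shared by near-identical copies make each of these ratios uncertain.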
